A study of Homo sapiens with 4 samples.

Results

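A terminal block of the short arm of chromosome 4, in band 4p16, was described from 1 deposited ATAC-seq peak list. The block is bounded by position and not by the end of the band, so the comparison is not one of the band with sequence outside it. Its members are the 5145 listed summits on chromosome 4 that lie within the first 5 Mb of the hg19 sequence, in 1824 regions, out of 371521 summits in 197823 regions in the whole list. A summit is the point of highest read signal in a peak, and a region is 1 stretch of enriched signal with its own start and end, which can hold several summits. The block was chosen by its position, after its high number of listed summits had been seen in this list, so counts and densities below describe it and test nothing. The list has no column per sample, and no value here compares knock-down with control cells.

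The list comes from a study of 4 libraries of T47D-MTVL cells, a line derived from the T47D breast cancer line that carries 1 stably integrated luciferase reporter under the MMTV promoter in both groups. In the multiH1sh group (2 samples) an shRNA against multiple variants of linker histone H1 was expressed, and in the RDsh group (2 samples) a random shRNA was expressed. Each library was made from 75000 cells with the Tn5 transposase, which cuts and tags accessible DNA. The deposited list is labelled multiH1sh and differential against RDsh, and its track line gives the same label with 225sh in place of multiH1sh. How RDsh entered the list is not stated, so what makes a listed summit differential is not known here. Which samples were used is not stated either, and replicate spread is therefore missing beside every value.

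Linker histone H1 binds where DNA enters and leaves the nucleosome and helps to fold nucleosome arrays into compact chromatin. ATAC-seq reads pile up where DNA is open to Tn5, typically at promoters, enhancers and other nucleosome-poor stretches. Band 4p16 is known as a gene-rich end of a chromosome that is otherwise mostly gene-poor, and loss of its distal part causes Wolf-Hirschhorn syndrome.

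The genes of this end of the chromosome are given as background. In the RefSeq table of GRCh38, another build than that of the list, 62 named protein-coding genes follow each other from ZNF595 at the tip to MSX1, a homeobox gene of craniofacial and tooth development. The tip holds the zinc finger genes ZNF595, ZNF718, ZNF732, ZNF141 and ZNF721. They are followed by PIGG, which acts in GPI anchor synthesis, and by PDE6B, which encodes a subunit of the rod photoreceptor phosphodiesterase. Next in order come PCGF3, a Polycomb ring finger protein, CPLX1, a regulator of synaptic vesicle release, GAK, a kinase of clathrin uncoating, and IDUA, the lysosomal iduronidase. FGFRL1, a receptor-like protein of the FGF family, and CTBP1, a transcriptional co-repressor, follow. The Wolf-Hirschhorn stretch then holds SLBP, which binds the stem-loop of histone mRNAs, TACC3, a spindle protein, the growth factor receptor gene FGFR3, the mitochondrial gene LETM1, the histone methyltransferase gene NSD2 and NELFA, a subunit of the negative elongation factor. Further in lie RNF4, a SUMO-targeted ubiquitin ligase, HTT, the Huntington disease gene, RGS12, a regulator of G-protein signalling, DOK7, an adaptor of the neuromuscular junction, and ADRA2C, an adrenergic receptor. No listed region was assigned to any of these genes, because their positions in the build of the list were not used here.

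Depth is known only through the list itself. The fold enrichment and p-value of a summit gave back the number of reads over it (its pileup), where p was within floating-point range. The background was each time the same, 2.01 reads, so that 1 read added 0.332 to the fold. Beyond that range the pileup was taken from the fold and this background. The fold therefore ranks summits by their own reads and, despite the label of the list, measures no difference from RDsh. Whether RDsh was used to choose which summits are listed was not tested. The lowest pileup in the list was 10 reads, and stretches below that are not listed.

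The block held 58.9% of the 8739 summits and 44.3% of the 4116 regions on chromosome 4, at 1029 summits and 365 regions per Mb. The next 10 Mb, from 5 to 15 Mb, held 1752 summits in 1266 regions, at 175 summits and 127 regions per Mb. The density was thus 5.87 times higher in the block by summits and 2.88 times higher by regions. Against the 4 Mb next to the block (5 to 9 Mb, 418.5 summits per Mb) the ratio was 2.46, because 95.5% of the summits of the comparison span lay in that part. From 9 to 15 Mb the list held 78 summits. Of the sequence of the block 19.9% lay in listed regions, against 3.36% from 5 to 15 Mb.

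**Figure D1:**
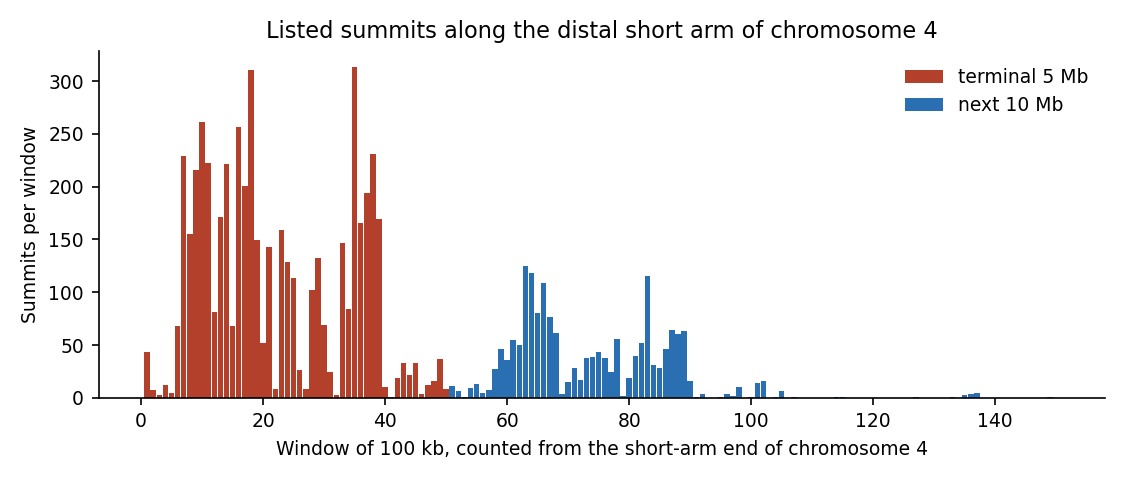
Listed summits in each window of 100 kb over the first 15 Mb of chromosome 4, counted from the short-arm end, with the terminal 5 Mb (50 windows) and the next 10 Mb (100 windows) in different colours. The terminal windows reach 313 summits but are low at both edges of the block, and the next 10 Mb reach 125 summits and are nearly empty beyond window 90.

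Within the block the summits were far from evenly spread. The stretch from 0.5 to 4 Mb held 4890 of the 5145 summits (95.04%), at 1397 per Mb. The first 0.5 Mb held 70 summits in 40 regions, and the last 1 Mb held 108 and 77 in its parts of 0.5 Mb. These edges together had 170.0 summits per Mb, a density close to the 175 of the next 10 Mb. The high density of the block therefore lay in the stretch from 0.5 to 4 Mb, whereas the tip itself was sparse. The first region began at 11216 bp from the start of the sequence.

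Both edges of the dense stretch were steep. At the telomeric side the window from 400001 to 500000 had 5 summits, the window from 500001 to 600000 had 68, and that from 600001 to 700000 had 229. At the other side the window from 3800001 to 3900000 had 169 summits, that from 3900001 to 4000000 had 10, and that from 4000001 to 4100000 had 1. The bound at 5 Mb, in contrast, marked no step. The last summits inside it lay at 4997006 and 4997145 with a fold of 5.65 each, and the first outside it at 5003819 and 5006503 with folds of 5.32 and 4.65.

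No window of 100 kb in the block was without a summit, against 40 of 100 windows from 5 to 15 Mb. Densities and covered shares use full lengths. Gaps in the sequence and stretches to which reads cannot be mapped were not measured. The median window of the block had 75 summits, the lowest 1 and the highest 313, and 23 of 50 windows had 100 or more. In the comparison span 4 of 100 windows had 100 or more, and the median window had 1. The 5 densest windows of the block held 1371 summits, or 26.6% of its total. They were picked by these same counts, so no interval is given for this share, which also depends on the window size.

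Of the 10 windows with the most summits, 6 adjoined another of the 10, in runs that began at 800001 and 1500001, and the other 4 stood alone. The densest, from 3400001 to 3500000, stood alone, between windows of 84 and 166 summits. It had 313 summits in 61 regions, which covered 55.1% of its sequence. The next, from 1700001 to 1800000, had 310 summits in 67 regions and the highest covered share, 57.1%. The window from 900001 to 1000000 had 261 summits, and its neighbours on either side, from 800001 and from 1000001, had 216 and 222. The window from 1500001 to 1600000 had 256 and the one after it 201. The windows from 3700001, 600001 and 1300001, which adjoined none of the 10, had 231, 229 and 221 summits. Of these 10 windows 8 lay below 2 Mb, and the other 2 lay between 3.4 and 3.8 Mb.

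Between these peaks lay sparse windows. The window from 2100001 to 2200000 had 8 summits between neighbours of 143 and 159. A window of 8 summits began at 2600001, and one of 3 began at 3100001. The longest stretch without a listed region ran from 128181 to 298864 (171 kb), in the sparse tip. The next lay from 4432497 to 4543615 (111 kb), beyond the dense part, whereas the one after it, from 3077230 to 3186240 (109 kb), lay inside it.

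The summits of the block carried more reads than those of the next 10 Mb. The median fold was 5.98 (quartiles 4.99 and 7.31), which corresponds to 17 reads, against 4.99 (quartiles 4.32 and 5.98) and 14 reads from 5 to 15 Mb. Summits of 20 reads or more numbered 1720 in the block, or 33.4% (95% Wilson interval 32.2 to 34.7%), against 225 or 12.8% (11.4 to 14.5%) in the comparison span. Over the whole list this share was 26.5%, between the shares of both spans. The intervals cover counting error only, since neighbouring summits depend on each other and copies made by PCR were not told apart.

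Very strong summits were rare in both spans. Summits of 50 reads or more numbered 16 in the block, or 0.311% (0.192 to 0.505%), against 1.44% in the whole list. From 5 to 15 Mb they numbered 2, or 0.114% (0.0313 to 0.415%). In the first 5 Mb of the short arms of chromosomes 7 and 16 the share was also low, at 0.630% and 0.400%. On chromosome 5 it was 4.02%. On chromosome 4 there were 398 summits of 50 reads or more, of which the block held 4.02%, although it held 58.9% of all summits of the chromosome. With 2 from 5 to 15 Mb, most of the 398 lay beyond 15 Mb. The class of 50 reads or more has no upper bound, and the highest pileup of the whole list was 245280 reads. What such pileups reflect was not tested. The low share in the block therefore does not show that it has fewer strongly open sites. The class from 20 to under 30 reads made up 28.0% of the summits of the block and 20.3% of the whole list, and the class from 30 to under 50 reads made up 5.11% and 4.78%. The interval of the last class in the block (4.54 to 5.75%) included the value of the whole list.

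**Figure D2:**
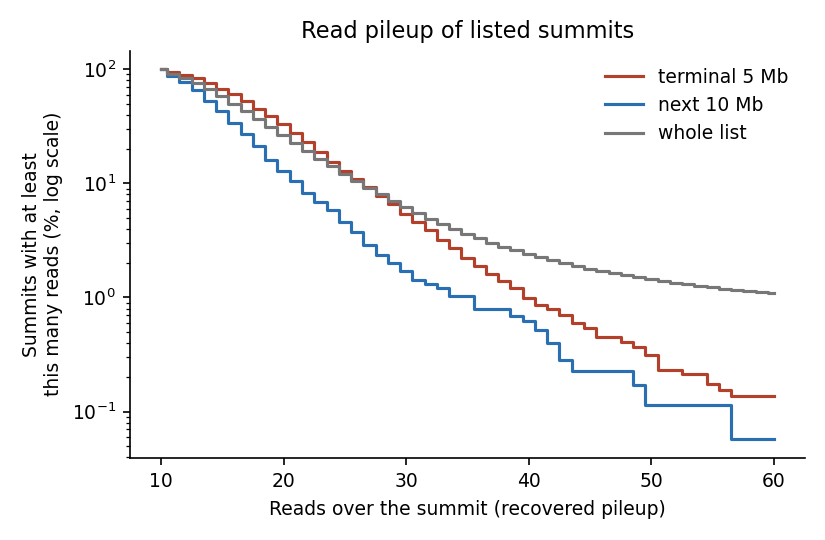
Share of summits (in percent, log scale) with at least the number of reads on the x axis, for the terminal 5 Mb, the next 10 Mb and the whole list. The terminal 5 Mb lie above the whole list at 20 reads (33.4% against 26.5%) and below it at 50 reads (0.311% against 1.44%), and the next 10 Mb lie below both at 20 reads.

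The 10 regions with the highest fold were spread over the block. The strongest lay at chr4:1039077-1040679, a region of 1603 bp with 6 summits, whose highest had 126 reads and a fold of 42.2. Its next summit had 43 reads, and the lowest 13, so 1 point stood far above the rest of the region. The second, at chr4:560450-561045, reached a fold of 37.9 with 113 reads, and its next summit had 22 reads. Next came chr4:52956-54776 in the sparse tip, with 11 summits and a fold of 32.3.

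The following 2 regions each had a single summit, at chr4:544374-544598 (225 bp, fold 30.6) and chr4:548760-549474 (715 bp, fold 29.3). Together with chr4:560450-561045 they lay within 16.7 kb of each other, in the window from 500001 to 600000 that opens the dense stretch. That window had 68 summits, and 3 of the 14 regions of the block with 50 reads or more lay there. The other 5 regions had folds from 18.3 to 22.3 and lay at chr4:1616754-1617399, chr4:3816517-3817419, chr4:3310612-3312324, chr4:2299337-2300004 and chr4:1230311-1232798.

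The widest regions were other ones than the strongest: none of the 10 widest was among the 10 with the highest fold. The widest was chr4:3440029-3447647, with 7619 bp and 44 summits, in the densest window of the block. Its lowest summit had 11 reads, its median 20.5 and its highest 47, and the median distance from 1 summit to the next was 157 bp. The next, chr4:955820-963267, had 7448 bp and 41 summits of 11 to 38 reads with a median of 21. After these came chr4:3246803-3252641, with 5839 bp and 37 summits, but a highest fold of only 9.97. The regions chr4:982015-987795 (35 summits) and chr4:1800899-1805971 (33 summits) completed the 5 with the most summits.

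The other widest regions were chr4:1984914-1990094, chr4:1011197-1016326, chr4:1626419-1631437, chr4:1766391-1771372 and chr4:3485000-3489959. All 10 were 4960 bp or wider, had 22 to 44 summits and reached highest folds from 9.97 to 15.96. The 10 strongest, in contrast, were 225 to 2488 bp wide. From 5 to 15 Mb the widest region had 2234 bp.

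Regions of the block were wider and held more summits than those beside it. The median width was 294.5 bp (quartiles 165 and 632), against 185 bp (134 and 299.8) from 5 to 15 Mb. Regions of 2 or more summits numbered 817, or 44.8% (42.5 to 47.1%), against 28.2% over the whole list and 20.1% (18.02 to 22.4%) in the comparison span. Regions of 1 kb or wider numbered 264, or 14.5%, against 6.07% over the whole list and 29 regions (2.29%) in the comparison span. In the block 92 regions had 10 or more summits and held 28.7% of all its summits. Over the whole list 3425 regions did, with 16.3% of the summits, and in the comparison span 3 regions did, with 2.00% (1.998%).

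**Figure D3:**
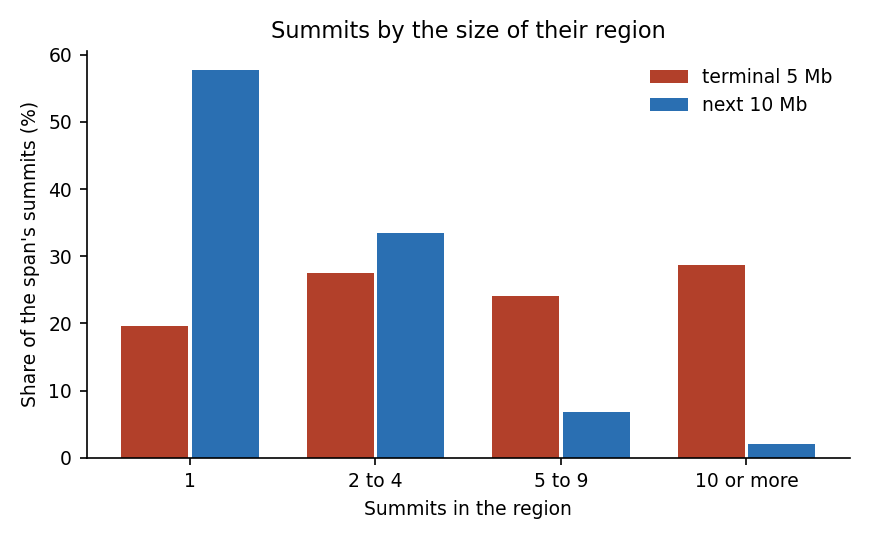
Share of the summits of each span (in percent) that lay in regions of 1, 2 to 4, 5 to 9 and 10 or more summits, for the terminal 5 Mb and the next 10 Mb. In the terminal 5 Mb the 4 classes hold 19.6%, 27.6%, 24.1% and 28.7%, whereas in the next 10 Mb regions of 1 summit hold 57.7%.

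Summits in larger regions also carried more reads. Region size and reads come from the same pileup and the same list, so they are not separate measures and the values are descriptions. In the block the share of summits of 20 reads or more was 12.9% in regions of 1 summit, 26.7% in regions of 2 to 4, 39.0% in regions of 5 to 9 and 49.2% in regions of 10 or more. From 5 to 15 Mb it was 6.23%, 18.9% and 35.8% in the first 3 classes, and 22.9% in the last class, which rests on 35 summits in 3 regions. The share was thus higher in the block in each class. The 95% intervals were 10.98 to 15.1% against 4.90 to 7.89% for regions of 1 summit and 24.4 to 29.02% against 15.98 to 22.3% for 2 to 4. For regions of 5 to 9 summits they overlapped (36.3 to 41.7% against 27.8 to 44.7%). These intervals cover counting error only and neighbouring summits depend on each other, so they test no difference between the spans.

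The spacing of summits inside a region was nearly the same in both spans. The median distance between neighbouring summits of 1 region was 159 bp in the block (quartiles 117 and 216, 3321 pairs) and 155 bp from 5 to 15 Mb (114 and 216, 486 pairs). Over the whole list the median was 156 bp. The larger regions of the block thus held more summits at about the usual spacing. Neighbouring regions, in contrast, lay closer together in the block, with a median gap of 386 bp against 990 bp.

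Along the block, the share of summits of 20 reads or more and the share of regions with 2 or more summits did not follow the number of summits alone. From 0.5 to 2 Mb the shares of 20 reads or more were 37.03%, 36.6% and 38.2% in bins of 0.5 Mb. From 2 to 2.5 Mb and from 3.5 to 4 Mb they were 27.9% and 27.7%. The sparse tip had 40.0% (28 of 70 summits, 29.3 to 51.7%), close to the dense bins, but only 25% of its regions had 2 or more summits (14.2 to 40.2%). The share of the tip rests largely on its first 100 kb, which held 43 of the 70 summits and 19 of the 28. Of these 43 summits, 11 lay in 1 region, chr4:52956-54776. At the other edge, from 4.5 to 5 Mb, both shares were low, at 7.79% (6 of 77 summits, 3.62 to 15.98%) and 8.82% (4.11 to 17.9%). The first and the last bin, both sparse, thus differed in the reads of their summits.

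**Figure D4:**
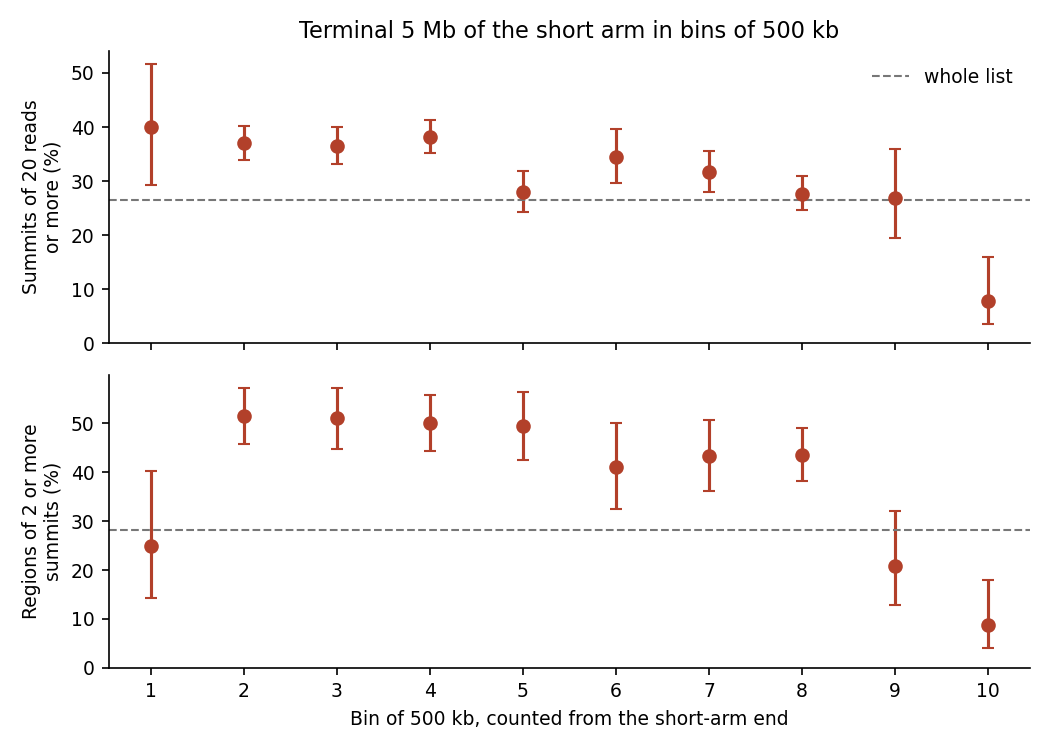
Share of summits of 20 reads or more (upper panel) and of regions with 2 or more summits (lower panel), both in percent, in the 10 bins of 500 kb of the terminal 5 Mb, with 95% Wilson intervals (counting error only) and the whole list as a dashed line. The first bin has a high share in the upper panel (40.0%) and a low one in the lower (25%), and the last bin is lowest in both (7.79% and 8.82%).

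Over the 50 windows of 100 kb the number of summits and the median fold went together moderately (Spearman's rho 0.46), and so did the number of summits and the median width of regions (rho 0.54). These windows share the same reads and the same list, and their base composition was not measured, so the values are descriptions.

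To set windows of like density side by side, windows with 50 to under 130 summits were taken from both spans, a choice made after the data were seen. There were 9 in the block and 14 from 5 to 15 Mb, with 766 and 1085 summits. The match was rough, since the median window held 81 summits in the block and 63.5 outside (851 against 775 per Mb). The 14 were also the densest windows of their span, whereas the block had denser windows than its 9. The share of summits of 20 reads or more was 29.6% (26.5 to 33.0%) in the windows of the block and 13.5% (11.6 to 15.6%) in the others. By window it ran from 17.1 to 42.03% with a median of 32.7% in the block, and from 4.00 to 22.9% with a median of 13.0% outside, and 7 of the 9 windows of the block lay above the highest of the 14. The median region width was 283.5 bp against 199 bp, and 40.7% against 24.3% of regions had 2 or more summits. The covered share of sequence differed less, at 17.5% against 14.9%, because the windows outside had more regions per Mb (518 against 382). In these windows the signal of the block thus lay in fewer regions per Mb, which were wider and of more reads. Fewer regions, wider regions and more summits per region are not separate results here. The windows were matched by summit number, and the median spacing within regions was similar (165.5 against 159.5 bp). Whether the remaining difference in summit number has a part in these differences was not tested.

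**Figure D5:**
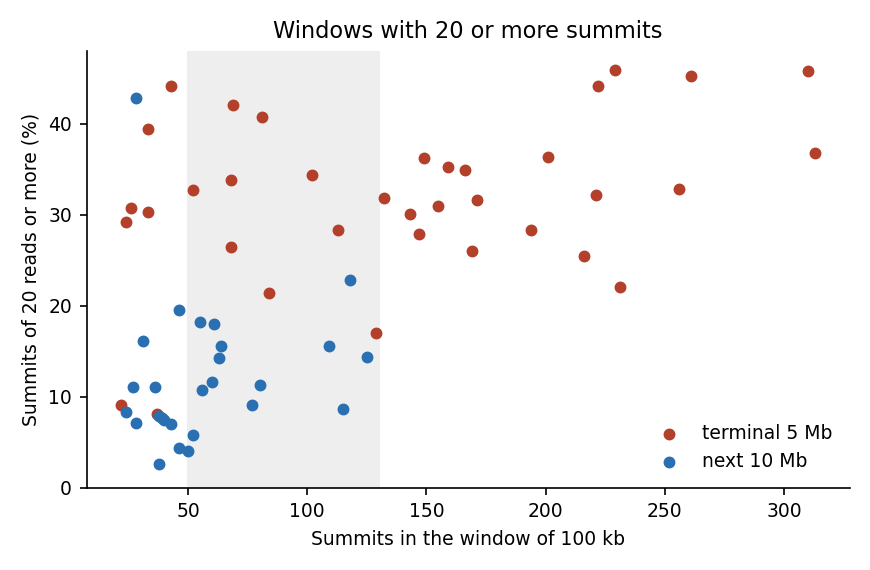
Share of summits of 20 reads or more (in percent) against the number of summits, 1 point for each window of 100 kb with 20 or more summits, in the terminal 5 Mb and the next 10 Mb of chromosome 4. In the grey band of 50 to under 130 summits, 7 of the 9 windows of the terminal 5 Mb lie above the highest of the next 10 Mb (22.9%).

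The first 5 Mb of the short arms of chromosomes 5, 7 and 16 were set beside the block. They were near it in median region width, summit spacing and the share of regions with 2 or more summits. In other measures some of them were near it and others differed. They held 4777, 7466 and 7744 summits, against 5145 in the block on chromosome 4. Their median region widths were 291, 308 and 306 bp, and 45.7%, 48.3% and 47.5% of their regions had 2 or more summits, against 294.5 bp and 44.8%. The median spacing of summits within regions was 159, 153 and 157 bp. Their median fold was 6.65, 5.98 and 5.98 (19, 17 and 17 reads), against 5.98 (17 reads) in the block. Regions of 10 or more summits held 47.6%, 34.9% and 36.2% of their summits, each above the 28.7% of the block. The most summits in 1 region were 114, 65 and 39, against 44 in the block. Listed regions covered 18.6% of the sequence on chromosome 5, near the 19.9% of the block, but 28.5% on chromosome 7 and 29.3% (29.25%) on chromosome 16. The share of summits of 20 reads or more was 49.7%, 37.8% and 33.9%, so that the block on chromosome 4, at 33.4%, was next to that of chromosome 16. Summits of 50 reads or more numbered 192 on chromosome 5 (4.02%, 3.50 to 4.61%), 47 on chromosome 7 (0.630%, 0.474 to 0.836%) and 31 on chromosome 16 (0.400%, 0.282 to 0.568%). The interval of the block on chromosome 4 (0.192 to 0.505%) lay below that of chromosome 5 and overlapped those of the other two. These intervals cover counting error only and neighbouring summits depend on each other, so they test no difference between the blocks. Because these blocks were all chosen for their dense summits, these values are descriptions.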

How the data were processed

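ATAC-seq was carried out on 2 multiH1sh and 2 RDsh samples, and 1 peak list was available for all of them. Per the submitters' processing notes, Bowtie 1.1.2, the build hg19 and MACS2 were used. The list is labelled differential against RDsh. How MACS2 was run, how RDsh was used, how duplicates were treated and whether samples were pooled is not given in the sources used here. In the list deposited by the authors each summit has a fold enrichment (a ratio of signal to background), the −log10 of its p-value and a score, which equals 10 times −log10 p without decimals (within 1 unit) in all 371521 lines and was not used further.

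Pileups were recovered from fold and p as (pileup + 1) / (background + 1) and the Poisson tail, for the 172 distinct pairs of fold and p within floating-point range, and the median background gave a pileup within 2.78e-05 reads of a whole number for each summit of the block. The solver was tested on simulated data and recovered 100% of 500 lines. Positions are hg19, counted from 1. Summits were counted in windows of 100 kb and bins of 500 kb, and covered sequence is the union of regions. Intervals given with shares are 95% Wilson intervals. Python 3.11.15, numpy 2.4.6, scipy 1.17.1, pandas 2.3.3 and matplotlib 3.10.9 were used.

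The block, the comparison span, the gene lists and the rule for named items were chosen with earlier results of these data known. The rule takes the 10 windows with the most summits, the 10 regions with the highest fold, the 10 widest, the 5 with the most summits, the 3 longest stretches without a region and the summits beside 5 Mb. It also takes the 3 densest windows, strongest regions and widest regions from 5 to 15 Mb. All 59 gene symbols of the 7 lists were found on chromosome 4 in the RefSeq table of GRCh38, which served for names and order only. No genome of the build of the list was used, so genes were not set against regions and no sequence is printed. No test was run, since the list has no value per sample.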

Additional observations from a re-analysis of the deposited data

How the results depend on the processing

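The number of members (5145 summits) became 1824 with each region counted once, 1779 with regions within 100 bp merged, 1720 at 20 reads or more and 3101 among the 50% of all summits with the highest fold, each by construction. The density ratio of 5.87 became 2.88 with each region counted once, 2.83 with regions merged, 15.3 at 20 reads or more, 10.5 among the 50% with the highest fold, 3.03 against 5 to 10 Mb, 93.5 against 10 to 15 Mb, 7.04 for 0 to 4 against 4 to 15 Mb, 5.003 for 0 to 6 against 6 to 15 Mb and 2.46 against 5 to 9 Mb. It was above 1 in all 9. The median fold from 5 to 15 Mb was 4.65 over the highest summit of each region. With cuts at 15 and 30 reads in place of 20, the share of summits was 67.6% and 5.42% in the block and 42.8% and 1.71% from 5 to 15 Mb, and by the highest summit of each region it was 36.7% in the block. In windows of 50 to under 130 summits, an alternative added after the data were seen, the values were a median fold of 5.65, a share at 20 reads of 29.6%, a covered share of 17.5% and 40.7% of regions with 2 or more summits in the block, and a median width of 199 bp, a covered share of 14.9% and 24.3% from 5 to 15 Mb. Regions with a summit of 20 reads or more covered 13.7% of the block and 0.884% of the next 10 Mb. The densest 10% of windows held 31.8% of the block's summits in windows of 50 kb and 21.4% in windows of 250 kb. In the 12 alternatives that give a value for both spans, the block was above 5 to 15 Mb each time. Apart from what follows from the construction, the cause was not tested. The alternatives at gene start sites were not run, since no annotation of this build was used. No paired analysis was possible because single samples have no values here, and for the same reason no replicate could be left out. Stretches under 10 reads over a background of 2.01 reads are not listed, so a sparse window does not show closed chromatin.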

Other observations

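From 5 to 15 Mb the summits formed lower rises. The 3 densest windows there were those from 6200001 to 6300000 (125 summits), 6300001 to 6400000 (118) and 8200001 to 8300000 (115), in which 14.4%, 22.9% and 8.70% of summits had 20 reads or more. The 3 widest regions were chr4:7454631-7456864 (2234 bp), chr4:6576245-6578465 (2221 bp) and chr4:6292351-6294514 (2164 bp), with 3, 13 and 12 summits.

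The strongest region of the first 15 Mb lay outside the block, in nearly empty surroundings. It was chr4:12641924-12642260, 337 bp wide with 1 summit of 2073 reads and a fold of 690 (689.6), against at most 126 reads in the block. Its pileup is beyond the 400 reads up to which fold and p were solved together, so it rests on the fold alone. No filter for regions of unreliable mapping was applied here, and what this pileup reflects was not tested. The next strongest from 5 to 15 Mb, chr4:8411078-8412455 and chr4:9154339-9155111, had folds of 19.0 and 16.6.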
